A study of Rattus norvegicus with 32 samples.

Results

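The glucocorticoid receptor and its target genes were followed in the septic rat heart by 10 genes, Nr3c1, Hsd11b1, Fkbp5, Tsc22d3, Sgk1, Errfi1, Cebpb, Cebpd, Klf9 and Zbtb16. Members were the non-control probes whose gene name, in the older or the newer annotation carried by the scanner files, was one of these symbols. The rule found 10 of the 43628 gene names in either annotation and 16 of 45598 probes, with 3 for Nr3c1, 3 for Zbtb16, 2 for Errfi1, 2 for Cebpb and 1 for each other gene. Of the 3 Zbtb16 probes, 2 carried that name only in the files of the female arrays. All 16 probes passed the filter on dim probes in both sexes, and each gene was described by its brightest probe, which was well above background on all 32 arrays.

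Left ventricles were taken from young adult Wistar rats 20 h after surgery and hybridised to 1-colour Agilent arrays. In each sex there were 5 sham-operated rats, 5 rats with cecal ligation and puncture (CLP), an operation that causes peritonitis and sepsis, and 6 rats with CLP plus landiolol, a short-acting β1-selective adrenergic blocker infused from shortly after the ligation. Sham and CLP rats received saline in place of the drug, all rats received buprenorphine for pain, and per the methods cardiac function was measured ex vivo before the tissue was taken. No group received landiolol without CLP, and arrays are numbered within a group only to name them.

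Glucocorticoids are adrenal steroids released in stress and infection. In the cytosol their receptor, encoded by Nr3c1, is held by a chaperone complex, and after binding the hormone it enters the nucleus, where it switches on one set of genes and restrains many inflammatory ones. The enzyme encoded by Hsd11b1 regenerates active hormone from its inert form inside cells, and several of the induced genes, such as Fkbp5 and Tsc22d3, feed back on the receptor or on inflammatory signalling. Cebpb, Cebpd and Sgk1 also answer to cytokines and other stress signals, so that they are not readouts of the receptor alone.

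RefSeq promoter windows of 300 bases, 250 before and 50 after a transcription start in the GRCr8 build, were given for 7 of the 10 genes, with 12 windows in all. None was given for Hsd11b1, Cebpd or Zbtb16. Windows were searched on both strands for the full glucocorticoid response element (its palindromic consensus), for AGAACA, a single arm of that element, for TGACGTCA, the cyclic AMP response element, and for TTGCGCAA, the C/EBP palindrome. No member window held any of these 4 motifs, which were present in 0.439%, 20.7%, 1.83% and 0.17% of 33469 windows of all genes. After the windows had been read, TGACG, which lies within the cyclic AMP response element, and TATAAA, the TATA box, were searched as well. TGACG was found in 4 of the 12 member windows, 1 each of Tsc22d3, Errfi1, Cebpb and Klf9, and in 21.2% of all windows. TATAAA was found in 5 of the 12, 2 of Sgk1 and 1 each of Tsc22d3, Errfi1 and Cebpb, and in 14.2% of all windows. The windows of 4 members are shown because they set Fkbp5, which rose after CLP in both sexes, and Cebpb, which rose in males, beside Tsc22d3 and Sgk1, which passed no test. Tsc22d3 and Sgk1 have 3 windows each, of which the one listed as number 1 is printed. Capitals mark TGACG, on either strand, and TATAAA.
Fkbp5 (chr20:6543506-6543805, minus strand): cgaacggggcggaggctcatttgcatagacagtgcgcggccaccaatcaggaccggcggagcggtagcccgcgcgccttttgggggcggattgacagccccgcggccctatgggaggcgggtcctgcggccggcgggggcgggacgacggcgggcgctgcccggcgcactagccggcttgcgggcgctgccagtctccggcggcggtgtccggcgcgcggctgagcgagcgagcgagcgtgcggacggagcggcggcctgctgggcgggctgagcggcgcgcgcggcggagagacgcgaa
Cebpb (chr3:176816755-176817054, plus strand): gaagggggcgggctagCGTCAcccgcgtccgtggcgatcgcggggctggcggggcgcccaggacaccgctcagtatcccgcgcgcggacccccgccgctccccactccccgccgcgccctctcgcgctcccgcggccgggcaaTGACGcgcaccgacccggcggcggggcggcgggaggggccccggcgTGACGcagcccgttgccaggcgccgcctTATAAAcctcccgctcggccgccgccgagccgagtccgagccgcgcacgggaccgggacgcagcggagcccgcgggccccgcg
Tsc22d3 (chrX:109009985-109010284, minus strand): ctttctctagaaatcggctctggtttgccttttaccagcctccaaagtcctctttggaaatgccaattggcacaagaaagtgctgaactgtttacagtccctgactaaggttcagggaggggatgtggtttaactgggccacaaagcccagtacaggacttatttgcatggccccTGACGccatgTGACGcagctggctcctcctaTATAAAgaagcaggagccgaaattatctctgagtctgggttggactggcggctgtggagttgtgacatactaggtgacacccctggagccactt
Sgk1 (chr1:24804782-24805081, minus strand): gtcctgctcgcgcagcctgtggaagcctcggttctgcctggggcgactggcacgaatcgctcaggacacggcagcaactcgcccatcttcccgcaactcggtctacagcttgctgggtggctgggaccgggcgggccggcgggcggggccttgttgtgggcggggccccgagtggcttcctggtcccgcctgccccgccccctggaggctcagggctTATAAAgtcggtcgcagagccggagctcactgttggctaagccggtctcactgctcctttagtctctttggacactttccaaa
The Fkbp5 window held neither motif. In the Cebpb window TATAAA began 33 bases before the start, as it did in the printed Sgk1 window, and in the printed Tsc22d3 window it began 44 bases before it. Of the Sgk1 windows not printed, 1 held TATAAA 55 bases before its start and the other neither motif, and the Tsc22d3 windows not printed held neither. A match is a description of letters in this window, and elements farther from the start lie outside it.

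Facts of the series that bear on these genes were as follows. Between 34920 and 43155 of 58717 non-control spots on an array were well above background, and no spot was saturated. Males and females were hybridised on different slides, so that sex and slide cannot be told apart, and every group was spread over both slides of its sex. Per the file headers, 1 female slide of 8 arrays was extracted under another protocol version than the other 3 slides. All female sham arrays lay in row 1 and all female CLP plus landiolol arrays in row 2 of their slides. All 10 cardiomyocyte markers were well above background on every array and none passed a test between groups. After CLP, 3 of 7 macrophage and monocyte markers tested were higher in both sexes, with a summed level of 11800 to 16400 on male sham and 31400 to 46300 on male CLP arrays, and 15500 to 22800 and 32300 to 51100 in females. The summed level of the 8 neutrophil markers was 60.2 to 95.6 on male sham and 182 to 857 on male CLP arrays, and 77.6 to 120 and 213 to 500 in females, with 0 to 4 of the 8 well above background on these arrays. On CLP plus landiolol arrays the sum was 358 to 910 in males and 233 to 1180 in females. After CLP, 2 of 2 neutrophil markers tested were higher in males and 1 of 3 in females. In CLP males, 4 of 6 fibroblast markers were lower, with a median log2 change of -1.61, and in CLP females 0 of 6 passed, with a median of -1.07. Their summed level was 78000 to 125000 on male sham and 47500 to 90400 on male CLP arrays, and 50200 to 74100 and 41600 to 82200 in females. One female CLP array, number 4, had a summed level of red blood cell markers of 153000, against a group median of 4540. In such bulk tissue fewer cells of a type and less RNA per cell cannot be told apart, and the part of these cell types in the results below was not tested.

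The transcripts of Hsd11b1 and Fkbp5 rose after CLP in both sexes, and Cebpb rose in males. The comparison of CLP with sham asks how sepsis changes these genes, at a false discovery rate (FDR) of 1% over all probes tested. In males 3 of 10 members passed it, all 3 higher, where 7.81% of 25864 probes passed and 3.87% passed as higher. In females 2 of 10 passed, both higher, where 3.63% of 25394 probes passed and 1.82% passed as higher. These counts take the brightest probe of each gene, and of all 16 member probes 3 passed in males and 2 in females. The median log2 change of the 10 members was 0.44 in males and 0.02 in females, against 0.01 and -0.01 over all probes. Male CLP and sham arrays did not overlap for 4 of 10 members, where they did not overlap for 12.3% of all probes, and female arrays for 2 of 10, where 8.32% did not. The members were chosen with earlier results of these data known, so these counts and shares are a description and not a test.

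**Figure D1:**
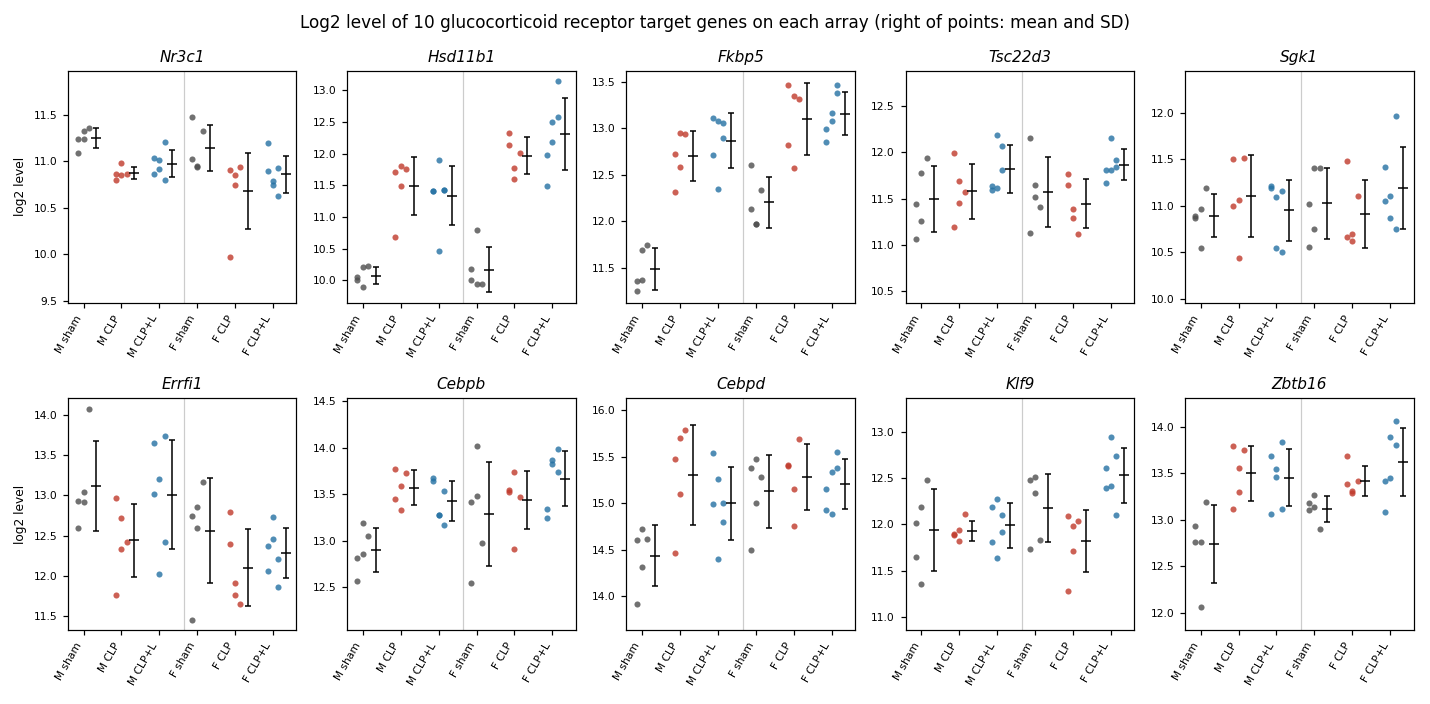
Log2 level (quantile-normalised within each sex) of the brightest probe of each gene on every array, with sham in grey, CLP in red and CLP plus landiolol (CLP+L) in blue, M for male and F for female. The bar to the right of each set of points gives the mean ± SD of 5 or 6 arrays, and Hsd11b1 and Fkbp5 stand higher in the CLP and CLP plus landiolol groups than in the sham group of the same sex.

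Nr3c1, the receptor itself, was measured by a probe at chr18:32457965-32458024 (rn4, as all probe positions here). Male sham arrays read 11.09, 11.24, 11.36, 11.24 and 11.32 on the log2 scale, and male CLP arrays 10.80, 10.98, 10.86, 10.86 and 10.85. Every male CLP array was below every male sham array, yet the difference of -0.38 (SE 0.10) missed the 1% FDR (limma, adjusted p = 0.0132). In females the sham arrays read 11.48, 10.94, 11.32, 11.02 and 10.95 and the CLP arrays 10.91, 10.74, 10.94, 9.97 and 10.85, a difference of -0.46 (SE 0.19, adjusted p = 0.144). The low female value came from array 4, the one with high red blood cell markers, and without it the difference was -0.28 (adjusted p = 0.312). Of the 2 dimmer Nr3c1 probes, 1 gave changes of -0.54 in males and -0.46 in females and the other 0.07 and -0.15, none past the FDR. The male call for the main probe depended on the setting, since it passed the 1% FDR with normexp background correction (adjusted p = 0.00535), with a trended prior (0.00907), with array weights (0.0046) and with the table of the authors (0.00578), as well as at an FDR of 5%.

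Hsd11b1, whose enzyme renews active glucocorticoid within the cell, showed the largest change of the 10 members in CLP against sham in both sexes. Its probe lies at chr13:109063624-109063683. Male sham arrays read 10.01, 10.21, 10.23, 10.05 and 9.89, and male CLP arrays 10.69, 11.49, 11.75, 11.71 and 11.81. The groups did not overlap, and the level was 2.67-fold higher after CLP (log2 1.41, SE 0.24, adjusted p = 0.000988). Female sham arrays read 10.003, 10.79, 9.94, 10.18 and 9.94, and female CLP arrays 12.14, 11.78, 12.02, 12.32 and 11.61. Here too the groups did not overlap, and the level was 3.48-fold higher (log2 1.80, SE 0.26, adjusted p = 0.000579). The difference was 1.20 and 1.70 within the 2 slides of males and 2.09 and 1.43 within those of females. It passed the FDR in both sexes in every one of 14 other settings and in every fit with 1 array left out.

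Fkbp5, a co-chaperone of the receptor complex that lowers its affinity for hormone and is itself induced by the receptor, rose in both sexes. Its probe lies at chr20:6637600-6637659. In males the sham arrays read 11.25, 11.36, 11.75, 11.36 and 11.70 and the CLP arrays 12.72, 12.95, 12.94, 12.32 and 12.59, with no overlap. This was a 2.33-fold rise (log2 1.22, SE 0.17, limma, adjusted p = 0.000201). It held in all 14 other settings and all fits with 1 array left out. Of these settings, the looser FDR of 5% could not lose a call in either sex. The mean over probes left Fkbp5, with 1 probe, as it was. In females the sham arrays read 12.61, 11.97, 12.34, 12.13 and 11.97 and the CLP arrays 12.82, 13.35, 13.32, 13.46 and 12.58. Only the highest sham array exceeded the lowest CLP array, and the rise was 1.87-fold (log2 0.90, SE 0.19, adjusted p = 0.00743). This female call was near the threshold. It was lost in 5 of 14 other settings and in 10 of 16 fits with 1 array left out, those without sham arrays 2, 3, 4 or 5, CLP arrays 2, 3 or 4, or CLP plus landiolol arrays 1, 2 or 5 (adjusted p at most 0.0226), while the log2 change stayed between 0.81 and 1.06.

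Cebpb and Cebpd encode C/EBPβ and C/EBPδ, leucine zipper factors of the acute phase response. The main Cebpb probe, printed 10 times on each array, lies at chr3:158827761-158827820. Its male sham arrays read 12.82, 12.86, 13.05, 12.57 and 13.20 and its male CLP arrays 13.45, 13.33, 13.73, 13.78 and 13.59. The groups did not overlap, and Cebpb rose 1.60-fold in males (log2 0.67, SE 0.14, adjusted p = 0.00447). In females sham arrays ranged from 12.55 to 14.03 and CLP arrays from 12.91 to 13.74, a difference of 0.15 (SE 0.24, adjusted p = 0.786). Within the slides of females this difference was -0.257 and 0.569, of opposite sign. The dimmer Cebpb probe gave 0.71 in males, with a larger error (SE 0.28, adjusted p = 0.0991). The male call was lost without sham arrays 1, 2 or 4 and without CLP arrays 3, 4 or 5 (adjusted p between 0.0101 and 0.0149), when only the sham and CLP groups entered the fit (0.0128), and when the mean of both probes was taken (0.0261). Male Cebpd read 14.61, 14.73, 14.61, 13.92 and 14.31 on sham and 14.46, 15.10, 15.78, 15.48 and 15.70 on CLP arrays. The difference of 0.87 (SE 0.26) missed the 1% FDR (adjusted p = 0.0304). It was 0.45 and 1.31 within the slides of males. The lowest CLP array was number 1, and without it the difference was 1.08 and passed (adjusted p = 0.00413), as it did with array weights (0.00479) and, with all arrays, at an FDR of 5%. Female Cebpd differed by 0.16 (SE 0.21, adjusted p = 0.728).

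The other induced members did not pass the 1% FDR in CLP against sham. Zbtb16, a zinc finger repressor strongly induced by glucocorticoids in many tissues, read 12.76, 12.06, 13.19, 12.94 and 12.77 on male sham and 13.80, 13.30, 13.75, 13.11 and 13.56 on male CLP arrays. The difference of 0.76 (SE 0.21) missed the 1% FDR (adjusted p = 0.0222), and the other probes of the gene gave 0.85 and 0.82. In females every CLP array (13.29 to 13.69) was above every sham array (12.90 to 13.27), by 0.30 on average (SE 0.17, adjusted p = 0.31). Tsc22d3, which encodes the anti-inflammatory protein GILZ, differed by 0.08 in males (SE 0.19, 95% confidence interval -0.32 to 0.48) and by -0.13 in females (SE 0.18, -0.51 to 0.25). Sgk1, a kinase that regulates ion channels, differed by 0.21 (SE 0.21) and -0.12 (SE 0.25). Klf9, a zinc finger factor, differed by -0.01 (SE 0.18) and -0.36 (SE 0.21). Within the slides of males the Klf9 difference was 0.435 and -0.317, of opposite sign. Errfi1, an inhibitor of the epidermal growth factor receptor, differed by -0.68 (SE 0.34) and -0.46 (SE 0.29) and varied most within groups, with a pooled SD of 0.54 log2 units against 0.22 for Nr3c1. Adjusted p for these 4 genes lay between 0.212 and 0.978, and the sham and CLP arrays overlapped for each of them in both sexes.

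**Figure D2:**
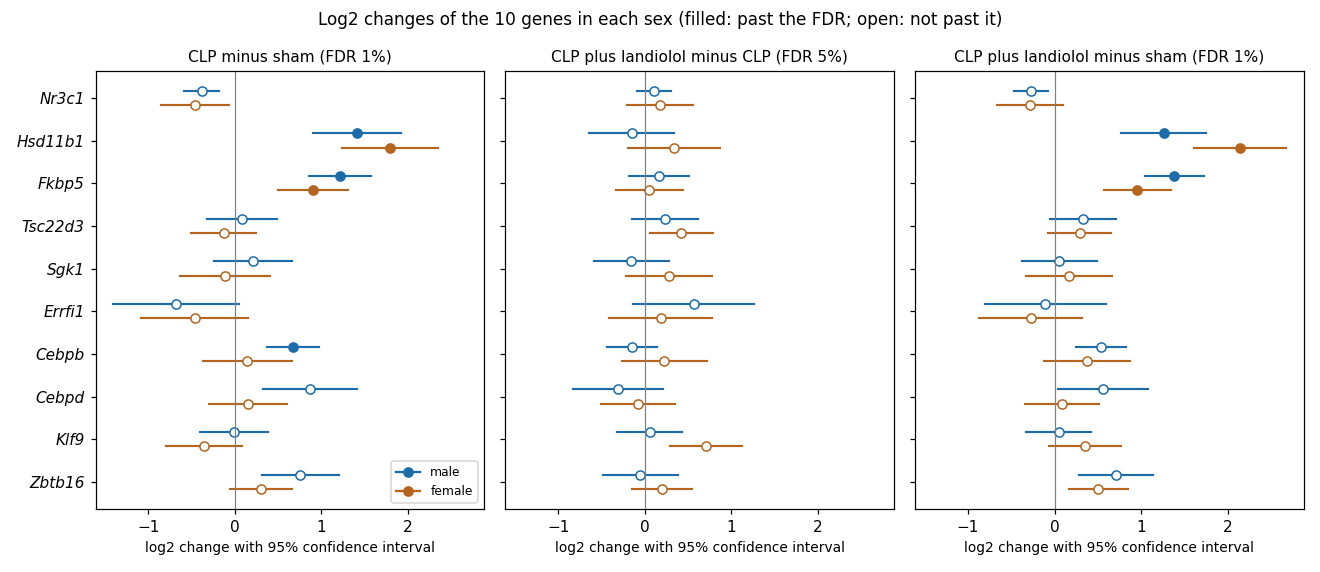
Log2 change with its 95% confidence interval (limma) for the 10 genes in males (blue) and females (brown), in CLP against sham, CLP plus landiolol against CLP, and CLP plus landiolol against sham. Filled points passed the FDR of the comparison and open points did not, and no point in the middle panel passed.

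None of the 10 members passed the FDR of 5% in CLP plus landiolol against CLP, in either sex. In males 0 of 10 passed, where 1.56% of 25864 probes passed, and 0 of 10 had an unadjusted p under 0.05, where 14.8% of probes did. In females 0 of 10 passed, where 0.0945% of 25394 probes passed, and 2 of 10, Klf9 and Tsc22d3, had an unadjusted p under 0.05, where 9.34% did. SAM also called 0 members in each sex. Male CLP plus landiolol and CLP arrays overlapped for all 10 members, where 2.26% of probes did not overlap, and female arrays for 9 of 10, where 1.15% did not.

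Hsd11b1 read 10.46 to 11.90 (median 11.42) on male CLP plus landiolol arrays, a change of -0.15 from CLP (95% confidence interval -0.64 to 0.34). Within the slides of males this change was 0.265 and -0.658, of opposite sign. On female arrays Hsd11b1 read 11.49 to 13.14 (median 12.35), a change of 0.34 (-0.19 to 0.87). Both groups lay above the sham arrays of their sex without overlap. Fkbp5 read 12.35 to 13.12 (median 12.98) in males, a change of 0.17 (-0.18 to 0.51), and 12.85 to 13.46 (median 13.13) in females, a change of 0.05 (-0.33 to 0.44). The interval of male Fkbp5 reaches -0.18 log2 units, beside a rise of 1.22 after CLP. Male Cebpb changed by -0.14 (-0.43 to 0.15) and male Nr3c1 by 0.10 (-0.09 to 0.30). Male Errfi1 changed by 0.57 (-0.13 to 1.27), beside -0.68 in CLP against sham, and with landiolol differed from sham by -0.11 (SE 0.33). The dimmer Errfi1 probe gave -0.68 after CLP and 0.64 under landiolol (SE 0.27, limma, unadjusted p = 0.0298, adjusted p = 0.275). In females the Errfi1 probes gave 0.19 and 0.25 under landiolol, neither past the FDR.

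The only member whose female CLP and CLP plus landiolol arrays did not overlap was Klf9. CLP arrays read 11.29, 11.98, 12.04, 12.09 and 11.71, and CLP plus landiolol arrays 12.10 to 12.94 with a median of 12.51. The difference of 0.71 (SE 0.20) did not pass the FDR (adjusted p = 0.201). It was 0.73 and 0.62 within the 2 slides, and in males it was 0.06 (SE 0.18). Female Tsc22d3 differed by 0.42 (SE 0.17, adjusted p = 0.437).

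Against sham, CLP plus landiolol hearts showed the same 2 genes past the 1% FDR in each sex. In males Hsd11b1 was 2.40-fold (log2 1.26, SE 0.23, adjusted p = 0.00262) and Fkbp5 2.61-fold higher (1.39, SE 0.16, 9.11e-05), 2 of 10 members where 4.15% of probes passed and 2.4% passed as higher. In females Hsd11b1 was 4.42-fold (2.14, SE 0.25, 9.52e-05) and Fkbp5 1.94-fold higher (0.96, SE 0.18, 0.00296), 2 of 10 where 5.25% passed and 3% passed as higher. Of all 16 member probes, 2 passed in each sex. Male Cebpb stayed at 0.53 (SE 0.14) without passing (adjusted p = 0.0211). Male Zbtb16 stood at 0.71 (SE 0.20, limma, adjusted p = 0.0357), and both genes passed at an FDR of 5%. This comparison shares its sham arrays with that of CLP, so that the 2 sets of values are not independent. With slide row added to the model, the female values were 2.15 for Hsd11b1 and 1.10 for Fkbp5 and neither passed (adjusted p = 0.0717 and 0.241), a fit in which sham and CLP plus landiolol hearts are linked only through CLP arrays.

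Whether the changes differed between males and females was tested as an interaction on all 32 arrays. For CLP against sham 0 of 10 members passed an FDR of 5%, as did 0 of 26490 probes (0%), while 3.76% of probes had an unadjusted p under 0.05. The largest member difference was that of Cebpd, whose change was 0.71 higher in males (SE 0.34, unadjusted p = 0.0434, adjusted p = 1 after rounding). Cebpb differed by 0.53 (SE 0.28, unadjusted p = 0.0704), so that its call in males and not in females is not shown to be a sex difference. For CLP plus landiolol against CLP 0 of 10 members and again 0% of probes passed, with 4.93% at an unadjusted p under 0.05. Klf9 had the largest difference, its change being lower in males by 0.65 (SE 0.27, unadjusted p = 0.0214, adjusted p = 0.969).

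Other genes of the pathway were taken from 4 lists, which were drawn up with earlier results of these data known. Counts from the lists are set beside the shares of all probes as a description, not as a test. In the list of the receptor complex and steroid handling, 12 of 16 genes were tested, and after CLP 1 rose and 1 fell in each sex, the same 2 genes. Fkbp4, the co-chaperone that competes with Fkbp5 and favours entry of the receptor into the nucleus, fell 2.01-fold in males and 2.34-fold in females. Its male sham arrays read 12.29 to 13.08 and its CLP arrays 11.14 to 12.12, and its female arrays 11.95 to 12.94 and 11.003 to 11.92. The log2 changes of -1.0045 (SE 0.20, adjusted p = 0.0028) and -1.22 (SE 0.23, 0.0031) were opposite in sign to those of Fkbp5 in the same hearts. The female Fkbp4 call was lost with only the sham and CLP groups in the fit (adjusted p = 0.0103), with slide row in the model (0.0286) and without sham array 1 (0.0101). H6pd, which makes the NADPH that lets the Hsd11b1 enzyme work in the hormone-activating direction, rose 2.43-fold in males (log2 1.28, SE 0.21, adjusted p = 0.000673) and 2.04-fold in females (1.03, SE 0.17, 0.00146), the latter lost with slide row in the model (adjusted p = 0.0115). Male H6pd read 8.23 to 8.69 on sham, 9.04 to 10.40 on CLP and 8.98 to 9.26 on CLP plus landiolol arrays. Its male change under landiolol of -0.70 (SE 0.20) did not pass (adjusted p = 0.098), although it did with array weights (0.0168) and without CLP array 1 (0.00568). In females it was -0.02 (SE 0.16). Fkbp4 changed by -0.26 (SE 0.19) in males and -0.27 (SE 0.22) in females under landiolol, neither past the FDR.

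**Figure D3:**
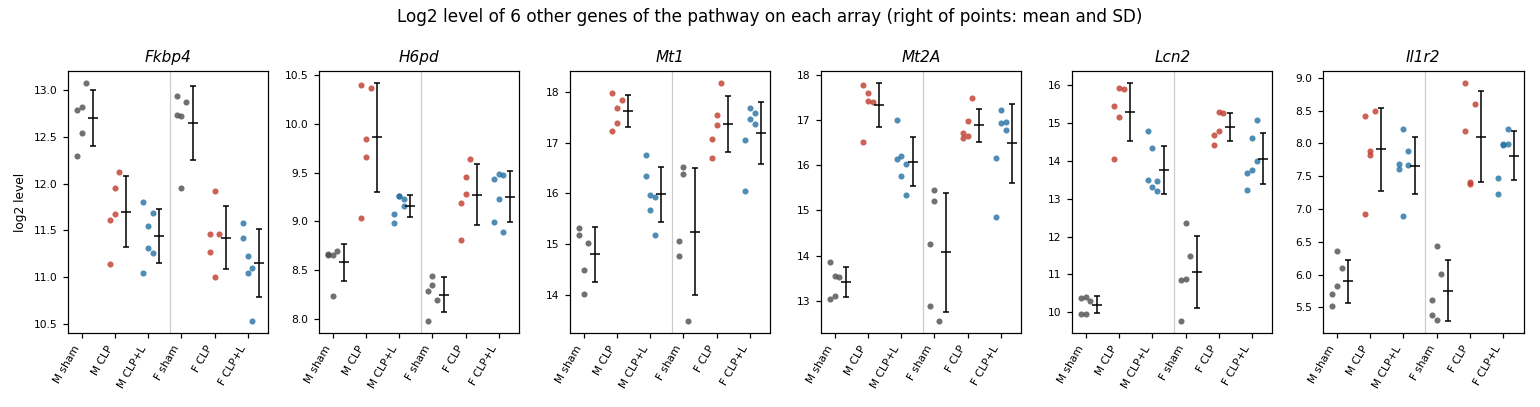
Log2 level of 6 other genes of the pathway on every array, with groups, colours and bars (mean ± SD, 5 or 6 arrays) as in the plot of the 10 members. Fkbp4 is lower and H6pd, Mt1, Mt2A, Lcn2 and Il1r2 are higher on CLP than on sham arrays of the same sex, and Mt1, Mt2A and Lcn2 are lower on average in males with landiolol than with CLP alone.

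None of the 10 receptor coregulators passed in any comparison, with a median log2 change after CLP of -0.04 in males and -0.03 in females. In the list of other genes induced by the receptor, 31 of 33 were tested. In males 8 of 31 rose after CLP, where 3.87% of all probes did, and 0 fell, with a median log2 change of 0.52. In females 4 of 31 rose, where 1.82% of all probes did, and 0 fell, with a median of 0.33. The 3 largest changes in males were those of Lcn2, a siderophore-binding protein, and of Mt2A and Mt1, metallothioneins that bind zinc, at 34.3-fold, 15.3-fold and 7.06-fold. In females they were those of Lcn2, Mt2A and Il1r2, a decoy receptor for interleukin-1, at 14.1-fold, 7.07-fold and 5.09-fold. Male Il1r2 rose 4.02-fold. The female call of Mt2A was lost in 3 of 14 other settings (adjusted p at most 0.0206) and without sham arrays 3 or 4 or CLP array 3 (at most 0.0121). Female Mt1 was 4.36-fold higher without passing (adjusted p = 0.0128), but passed in 4 of 14 other settings and without sham arrays 2 or 5 or CLP plus landiolol array 4. Among the 4 settings was the same fit judged at an FDR of 5%, where Mt1 had to pass. Glul, Bcl6, Ddit4 and Ampd3, named only to complete the counts, completed the male calls, and Glul the female ones. These genes also answer to zinc, cytokines or nutrient state. Il1r2 and Lcn2 are in addition made by neutrophils, whose summed marker level was higher in the same CLP hearts, and the part of those cells was not tested. Dusp1 and Per1, classical early targets of the receptor picked here after their values were seen, were among the genes that did not pass, with log2 changes of -0.87 (SE 0.63) and 0.38 (SE 0.22) in males and -0.81 (SE 0.52) and -0.19 (SE 0.34) in females.

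Under landiolol 3 of these 31 genes fell in males, where 0.754% of probes fell, and 0 in females. Male Mt1 read 17.23 to 17.97 on CLP and 15.18 to 16.76 on CLP plus landiolol arrays, and fell 3.13-fold (log2 -1.64, SE 0.28, adjusted p = 0.00757). Mt2A fell 2.40-fold (-1.26, SE 0.27, 0.0297) and Lcn2 2.90-fold (-1.53, SE 0.33, 0.0314). The call of Mt1 held in every other setting and fit, while those of Mt2A and Lcn2 were each lost in 8 of 16 fits with 1 array left out (adjusted p at most 0.101) and in 3 of 14 other settings, with no filter (0.0579 and 0.0619), with only the CLP and CLP plus landiolol groups in the fit (0.0763 and 0.098) and at an FDR of 1%. In females the 3 changes were -0.17 (SE 0.47), -0.40 (SE 0.52) and -0.83 (SE 0.39). The difference between the sexes did not pass for any of the 3 (unadjusted p = 0.0145 for Mt1, adjusted p = 0.969), nor for H6pd (0.0146 and 0.969). Fkbp5 and Hsd11b1 in the same male hearts changed by 0.17 and -0.15.

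In the list of inflammatory genes that the receptor restrains, 12 of 14 were tested in males and 13 in females, and 0 passed in any of the 6 comparisons with limma. The median log2 change after CLP was -0.14 in males and -0.16 in females, and that of CLP plus landiolol against CLP 0.15 in males and -0.66 in females. Against sham the medians of CLP plus landiolol were 0.00099 in males and -1.12 in females. Over all probes the 6 medians lay between -0.015 and 0.0282. Il6 and Tnf, also picked after their values were seen, did not pass. Il6 differed by 0.57 (SE 0.64) in males and 0.15 (SE 0.62) in females, and Tnf by -0.45 (SE 0.40) and -1.11 (SE 0.56).

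Likeness to each member was described by the Pearson correlation over 32 arrays, with each sex centred on its own mean, among 13031 other genes. These values include the differences between treatments, and the arrays share slides and normalisation. Hsd11b1 was most like Tmbim1 (r = 0.95), Il1r2 (0.93) and Map1lc3b (0.93), and Fkbp5 most like S100a8 (0.91), Slpi (0.89) and Glul (0.88). S100a8 is among the neutrophil markers summed above, and Il1r2 is also made by neutrophils. The part of those cells in these likenesses was not tested. Zbtb16 was most like Clec12b (0.80), Slc7a6 (0.79) and Nucb2 (0.78), Cebpb most like Srfbp1 (0.80), Lrrc2 (0.80) and Tmbim6 (0.77), and Cebpd most like Sh3pxd2b (0.77), Plscr1 (0.77) and RT1-DMa (0.76). Nr3c1 was most like Sh3tc2 (0.79), Fem1a (0.79) and Ccnd2 (0.77). Errfi1 was most like Apold1 (0.76), Nr4a1 (0.74) and Areg (0.72), Klf9 most like Kcna5 (0.77), Plaa (0.70) and Zfp866 (0.67), Tsc22d3 most like Atp6v1g1 (0.73), Hrk (0.72) and Tsc1 (0.69), and Sgk1 most like Rhob (0.71), Osm (0.70) and Sik1 (0.66).

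Within groups, after each of the 6 group means had been removed, the members moved together only loosely. Of 45 pairs, the highest correlation over 32 arrays was that of Hsd11b1 with Cebpd (Pearson r = 0.56, Spearman rho = 0.50), followed by Sgk1 with Klf9 (0.47 and 0.46), and the lowest that of Nr3c1 with Zbtb16 (-0.40 and -0.50). Fkbp5 and Tsc22d3, both taken as readouts of the receptor, had an r of 0.26.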

How the data were processed

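RNA of 32 left ventricles was read on 1-colour Agilent arrays. The deposited scanner files, made by the authors with Agilent Feature Extraction 10.5 (per the submitters' notes), hold background-subtracted processed intensity values per spot, and mean and background intensity values used in an alternative. The authors also deposited a table of normalised log2 values, whose scale offset is not given in the sources used here. It served as an alternative.

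Outlier spots were dropped, replicate spots averaged, and log2 intensities quantile-normalised within sex over 16 arrays. Probes well above background on 80% of the arrays of at least 1 group were kept. Linear models with empirical Bayes moderation (limma 3.58.1, R 4.3.3) compared the 3 groups of a sex, with Benjamini-Hochberg adjustment over all kept probes, at an FDR of 1% against sham and 5% against CLP. Sex differences were an interaction on 32 arrays normalised together, at 5%. A self-test used simulated arrays in which fewer probes were changed than passed in the data. At an FDR of 1%, CLP against sham recovered 44% of log2 changes of 1 in males and 34% in females. Of log2 changes of 2 it recovered 93% and 83%. Genes outside the 10 were named as the 3 largest changes past the FDR in CLP against sham per list and sex, and any past the FDR in CLP plus landiolol against CLP, with exceptions marked. Members and lists were chosen with earlier results of these data known. Probe positions are those of the files (rn4). Each array is a separate animal, and the number of arrays limits the precision.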

Additional observations from a re-analysis of the deposited data

Results flagged for a closer look

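Single arrays stood apart from the others of their group in 6 of 96 groups tested (Dixon's test, 10 members and 6 other genes), where chance gives about 5%. Nr3c1 read 9.97 on female CLP array 4, the array with high red blood cell markers. Its difference from sham was -0.46 with that array and -0.28 without it, neither past the FDR.

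Hsd11b1 stood apart on 3 arrays. It read 10.69 on male CLP array 1, and without that array its rise over sham was 1.61 (adjusted p = 0.000144). It read 10.46 on male CLP plus landiolol array 5, without which the change from CLP was 0.02 (adjusted p = 0.976). It read 10.79 on female sham array 2, without which the rise after CLP was 1.95 (adjusted p = 0.000502).

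H6pd read 8.23 on male sham array 2, and without it the rise after CLP was 1.20 (adjusted p = 0.00238). Fkbp4 read 11.95 on female sham array 2, and without it the fall after CLP was -1.40 on the log2 scale (adjusted p = 0.00112).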

How the results depend on the processing

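Of 104 counts of members called under another setting, 95 stayed the same or within 1.5 times the reported count. These 95 include all counts for CLP plus landiolol against CLP and for the sex differences, which were 0 and stayed 0. A fall of the male CLP count from 3 to 2 is also within 1.5 times. The 9 counts that moved were all in comparisons with sham. In males, CLP against sham gave 5 members with array weights and 6 at an FDR of 5%, and CLP plus landiolol against sham gave 4 at 5%. In females, CLP against sham gave 1 with normexp, with no filter, with only the 2 groups compared, with slide row in the model and with the table of the authors, and CLP plus landiolol against sham gave 0 with slide row in the model. The cause was not tested. With 1 array left out, members called ranged from 2 to 4 (male CLP against sham) and from 1 to 2 (female CLP, and female CLP plus landiolol, against sham), and did not move in the other comparisons.

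Some changes, none past the FDR, turned their sign. Male Klf9 after CLP was 0.0012 with scaling to the 75th percentile, 0.0298 with slide and 0.0179 with slide row in the model. With array weights, male Tsc22d3 after CLP was -0.0087, male Sgk1 under landiolol 0.0225, female Sgk1 after CLP 0.0387 and female Fkbp5 under landiolol -0.0586. With slide row in the model, female Cebpd under landiolol went from -0.07 to 0.13 and Fkbp4 from -0.27 to 0.0103, and in CLP plus landiolol against sham female Nr3c1 went from -0.28 to 0.17 and Sgk1 from 0.17 to -0.0571.

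With 1 array left out, male CLP against sham ranged from -0.0231 to 0.19 for Tsc22d3 and from -0.16 to 0.13 for Klf9. Male CLP plus landiolol against CLP ranged from -0.35 to 0.0241 for Hsd11b1 and from -0.15 to 0.0295 for Zbtb16, and against sham from -0.029 to 0.15 for Sgk1, -0.25 to 0.13 for Errfi1 and -0.10 to 0.19 for Klf9. Female CLP against sham ranged from -0.24 to 0.0165 for Tsc22d3, -0.0384 to 0.33 for Cebpb and -0.0029 to 0.29 for Cebpd. Female CLP plus landiolol against CLP ranged from -0.0785 to 0.14 for Fkbp5, -0.21 to 0.029 for Cebpd, -0.34 to 0.0628 for Mt1 and -0.14 to 0.0675 for H6pd, and against sham from -0.0769 to 0.17 for Cebpd. The sex difference after CLP ranged from -0.0924 to 0.15 for Nr3c1 and -0.37 to 0.0618 for Errfi1, and that under landiolol from -0.15 to 0.10 for Nr3c1, -0.21 to 0.22 for Il1r2 and -0.12 to 0.12 for Fkbp4.

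No paired analysis was run, since each array is a separate animal and the labels define no pairs, and array numbers only name samples. The titles end in a code that is different for each of the 32 samples and so pairs none. Whether values move with it was not tested. The number of arrays per group limits what can be seen, and no RNA amount per cell was measured.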
